A study of Mus musculus with 20 samples.

Results

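The genes described here make, break down or receive vasoactive signals: the prostanoid enzymes Ptgis, Ptgs1, Ptgs2 and Hpgd, the natriuretic peptide receptors Npr3 and Npr1, the endothelial nitric oxide synthase Nos3, the angiotensin-converting enzyme Ace, the endothelin precursor Edn1 and its receptor Ednra. The rule goes by gene symbol, and every probe set on the array whose only annotated symbol was one of these 10 was taken. That gave 13 of 22690 probe sets, covering 8 of the 10 genes. Ptgs1 and Ednra had no such probe set in the annotation and were not analysed here.

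The study profiled lungs of fetal mice that lacked the glucocorticoid receptor (GR, gene Nr3c1) in mesenchymal cells, taking total RNA of the left lobe. The 4 groups were mutants (GRCol1-Cre) at E18.5, GR flox controls at E18.5, mutants at E16.5 and GR flox controls at E16.5, all of C57Bl6 background, with 5 arrays each and 1 animal for each array. Controls carry the floxed GR gene and keep GR in mesenchyme; in mutants Cre is driven by the regulatory sequence of collagen type I alpha 2, so only cells that use that promoter, and their descendants, lose the gene. RNA of whole lobes was hybridised, and the RNA of endothelial, epithelial and blood cells, which the Cre is not designed to reach, is therefore in every value.

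Prostanoids are made from arachidonic acid by the cyclooxygenases Ptgs1 and Ptgs2, after which a terminal enzyme sets the product: Ptgis makes prostacyclin, a vasodilator that is abundant in lung, and Hpgd starts the inactivation of prostaglandins. Natriuretic peptides dilate vessels through Npr1, a guanylyl cyclase that makes cyclic GMP, while Npr3 binds and clears the same peptides. Nos3 also feeds cyclic GMP, through nitric oxide; Ace, carried on the surface of endothelium with the lung as a main site, makes angiotensin II and degrades bradykinin; endothelin-1, encoded by Edn1, is a strong vasoconstrictor.

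Values are log2 intensities as the authors normalised them, so a difference of 1 is a doubling, and differences are mutant minus control or E18.5 minus E16.5. A probe set below 4 is called dim. The limma fit covered 8068 genes that were above 4 on at least 5 arrays, each represented by its brightest single-gene probe set. Calls are genes whose p, adjusted by Benjamini-Hochberg over these 8068, was under 0.05. Of the 8 measured genes, 6 were tested: Ptgis, Hpgd, Npr3, Nos3, Ace and Edn1. Each of these 6 was above 4 on all 20 arrays, so none entered the fit through 1 group alone.

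The targeted gene, Nr3c1, lay between 7.56 and 8.05 in E18.5 mutants and between 9.02 and 9.57 in E18.5 controls, which left 32.5% of the control level; at E16.5 the level left was 30.4%. The arrays of a group correlated at 0.989 or above. The third replicate of the E18.5 controls stood apart from the other 4: on a scale where the mean of E16.5 controls is 0 and the mean of E18.5 controls is 1, computed over all tested genes with the array itself left out, it lay at 0.704, against 1.02 to 1.09 for the others and 0.452 to 0.769 for E18.5 mutants. The differences that involve it are given with and without it for the 6 tested genes. By Xist and 3 Y-linked genes, 2 of 5 E18.5 mutants, 3 of 5 E18.5 controls, 5 of 5 E16.5 mutants and 1 of 5 E16.5 controls were female. Of 8 epithelial markers chosen for lung, 7 were tested, and Nkx2-1 was dim on all 20 arrays.

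3 of the genes, Ptgis, Npr3 and Ace, carried the clearest differences between mutants and controls at E18.5, and Hpgd a smaller one. Promoter sequences of the genes that were lower in E18.5 mutants are shown so that the measurement can be set beside the DNA that precedes each gene; Edn1, which rose over development in both genotypes, is shown beside them. The RefSeq table (GRCm38.p6) held 8 of the 10 genes, without Ptgis and Nos3. Each line is the 250 bases before the annotated start, 5′ to 3′ on the gene's strand, with motif matches in capitals:
Npr3: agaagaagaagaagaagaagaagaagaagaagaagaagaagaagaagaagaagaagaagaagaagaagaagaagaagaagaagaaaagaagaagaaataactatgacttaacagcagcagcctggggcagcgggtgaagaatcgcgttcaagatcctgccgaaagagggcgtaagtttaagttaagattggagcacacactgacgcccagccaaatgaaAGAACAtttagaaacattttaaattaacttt
Ace: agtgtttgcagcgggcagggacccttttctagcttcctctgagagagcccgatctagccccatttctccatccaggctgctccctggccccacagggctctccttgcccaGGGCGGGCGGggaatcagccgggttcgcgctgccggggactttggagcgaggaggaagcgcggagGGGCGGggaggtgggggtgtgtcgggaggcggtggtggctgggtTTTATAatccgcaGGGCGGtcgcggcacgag
Hpgd: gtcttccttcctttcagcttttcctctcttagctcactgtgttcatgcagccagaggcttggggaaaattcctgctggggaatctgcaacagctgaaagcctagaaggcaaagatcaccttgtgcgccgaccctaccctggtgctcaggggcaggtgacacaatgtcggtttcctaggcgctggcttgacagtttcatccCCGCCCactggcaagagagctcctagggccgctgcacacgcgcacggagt
Edn1: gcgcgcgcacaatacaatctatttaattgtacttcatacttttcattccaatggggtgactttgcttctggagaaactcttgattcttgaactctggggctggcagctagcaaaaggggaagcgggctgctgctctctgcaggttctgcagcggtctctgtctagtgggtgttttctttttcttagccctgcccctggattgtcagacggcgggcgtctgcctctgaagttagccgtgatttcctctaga
The Npr3 window is chr15:11907372-11907621 on the minus strand, the Ace window chr11:105967698-105967947 on the plus strand (the first of 2 annotated starts), the Hpgd window chr8:56294302-56294551 on the plus strand and the Edn1 window chr13:42301226-42301475 on the plus strand. 4 motifs were searched on both strands. The first was AGAACA, the short element that a single GR molecule recognises and that reads TGTTCT on the other strand. The second was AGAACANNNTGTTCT, the palindrome made of both forms of that element, whose matches would also count as the short one. The others were the TATA box, TATAAA, and the GC box, GGGCGG. The Npr3 window held 1 AGAACA, at -31 to -26 from the start, and no other match. The Ace window held 4 GC boxes, of which those at -140 to -135 and -136 to -131 overlap, and 1 TATA box on the minus strand at -31 to -26. The Hpgd window held 1 GC box, and the Edn1 window held none of the 4. Of the windows not printed here, that of Ptgs1, which was not measured, also held the short GR element, at -204 to -199. For comparison, the short GR element was present in 16.1% of 32851 promoter windows of this length, the palindrome in 3 of them (0.00913%), the TATA box in 12.4% and the GC box in 32.7%. These matches describe letters in a window and were not measured as binding.

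**Figure D1:**
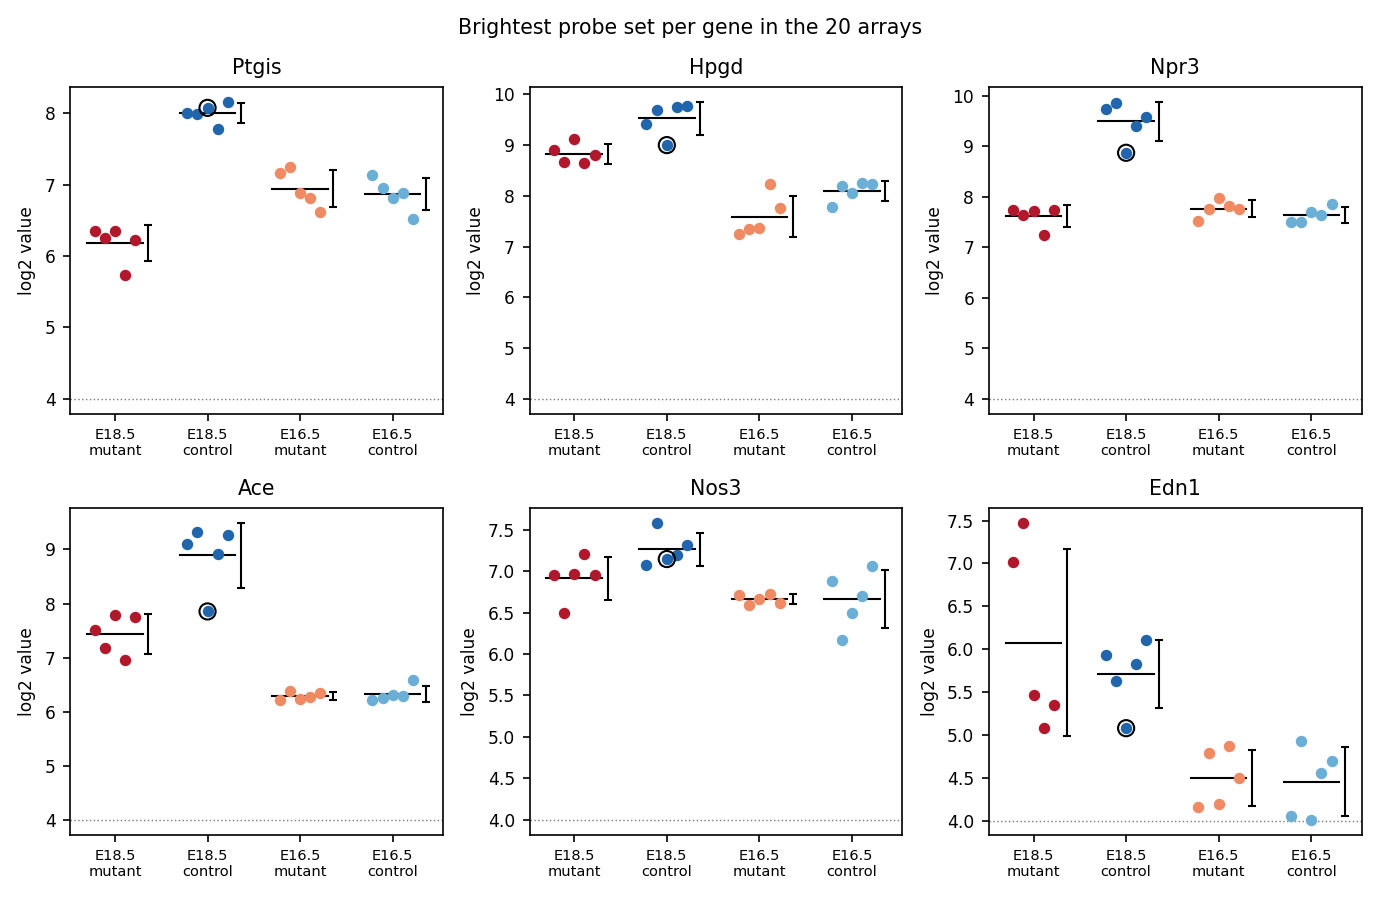
Log2 intensity of the 6 tested genes on each of 20 arrays (vertical axis, log2; 1 panel for each gene), in E18.5 mutants, E18.5 controls, E16.5 mutants and E16.5 controls. Points are arrays, lines group means and bars SD; the ring marks the third replicate of the E18.5 controls and the dotted line log2 4. Ptgis, Npr3 and Ace lie lower in every E18.5 mutant than in every E18.5 control, and mutants and controls overlap at E16.5 for all 6 genes.

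Between mutants and controls at E18.5, Ptgis, Npr3, Ace and Hpgd were lower in mutants (4 of 6 tested, against 15.9% of all tested genes called lower and 34.5% called in either direction). In 3 of the 6, Ptgis, Npr3 and Ace, every mutant lay below every control, as in 9.13% of all tested genes. Nos3 and Edn1 were not called. The median difference of the 6 genes was -1.08, and that of all tested genes 0.03. In whole-lobe RNA, fewer cells of a type and less RNA per cell cannot be told apart, and this holds for every difference that follows.

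Ptgis, the prostacyclin synthase, measured 6.35, 6.25, 6.34, 5.74 and 6.22 in E18.5 mutants, against 8.003, 7.99, 8.08, 7.79 and 8.16 in E18.5 controls. The lowest control stood more than 1 log2 unit above the highest mutant. Its level fell by 1.82 (SE 0.14, limma adjusted p = 2.83e-08) in mutants, leaving 28.3% of the control level. Of the 8068 tested genes, 85 fell by more and 12 had a smaller p. The third control replicate, which stood apart over all genes, did not do so here: at 8.08 it lay within the other controls, and the difference without it was -1.80.

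Npr3, the clearance receptor for natriuretic peptides, measured 7.74, 7.64, 7.72, 7.24 and 7.74 in E18.5 mutants, against 9.74, 9.86, 8.87, 9.39 and 9.59 in E18.5 controls. The groups did not overlap, although the third control replicate was the lowest control at 8.87. Npr3 fell by 1.88 (SE 0.15, limma adjusted p = 6.28e-08) in mutants, to 27.3% of the control level, and the difference was -2.03 without that control. 80 of all tested genes fell by more.

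Npr3 was the only one of the genes with 3 single-gene probe sets, and the 2 dimmer ones give further measurements of its RNA. The first of these (1448024_at) measured 2.62, 2.73, 2.51, 2.56 and 2.71 in E18.5 mutants and 5.37, 4.73, 3.48, 4.85 and 4.55 in E18.5 controls. The second (1450286_at) measured 2.55, 2.53, 2.53, 2.28 and 2.57 in E18.5 mutants and 4.46, 4.24, 3.10, 4.25 and 4.16 in E18.5 controls. Both were above 4 in no array but 4 of the 5 E18.5 controls, the third replicate again being the lowest, so they did not pass the filter of 5 arrays. With no filter, over 22626 probe sets, limma gave -1.97 (SE 0.23, adjusted p = 1.82e-05) for the first and -1.55 (SE 0.19, adjusted p = 3.31e-05) for the second. The mutant levels on these 2 are dim, so the direction can be read there but not an exact size.

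Ace, the angiotensin-converting enzyme, measured 7.51, 7.17, 7.79, 6.95 and 7.75 in E18.5 mutants, against 9.11, 9.32, 7.85, 8.91 and 9.27 in E18.5 controls. The groups did not overlap, but the margin was narrow: the highest mutant reached 7.79 and the third control replicate lay at 7.85, with the other controls at 8.91 or above. Ace fell by 1.45 (SE 0.21, limma adjusted p = 6.56e-05) in mutants, to 36.5% of the control level, and the difference was -1.71 without that control. Its dimmer probe set (1427034_at) measured 5.39, 5.71, 6.38, 5.28 and 6.55 in E18.5 mutants and 7.70, 7.75, 5.90, 7.44 and 7.96 in E18.5 controls. There 2 mutants lay above the third control replicate, so the groups overlapped; in a fit over all 13510 probe sets above the filter the difference was -1.49 (SE 0.31, limma adjusted p = 0.00135), where 31.1% of probe sets were called. The 2 Ace probe sets therefore gave differences of similar size.

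Hpgd, the dehydrogenase that inactivates prostaglandins, measured 8.90, 8.67, 9.12, 8.65 and 8.81 in E18.5 mutants, against 9.42, 9.69, 9.00, 9.75 and 9.78 in E18.5 controls. The groups overlapped through the third control replicate at 9.00, and 4 of 5 mutants lay below it. Hpgd fell by 0.70 (SE 0.18, limma adjusted p = 0.00518) in mutants, to 61.5% of the control level. The difference was -0.83 without that control, and -0.40, still called (limma adjusted p = 0.00926), when the dim second Hpgd probe set was averaged in.

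Nos3 and Edn1 gave no call at E18.5. Nos3, which makes nitric oxide in endothelium, measured 6.96, 6.49, 6.97, 7.20 and 6.95 in E18.5 mutants, against 7.08, 7.58, 7.15, 7.20 and 7.32 in E18.5 controls. 4 of 5 mutants lay below all controls, while the fourth mutant, at 7.20, lay among them. The difference was -0.35 (SE 0.15, limma adjusted p = 0.0685) with a 95% interval of -0.66 to -0.05; it passed the threshold with quantile normalisation (adjusted p = 0.0473), with array weights (adjusted p = 0.0212) and when any 1 of E16.5 control replicates 2 and 5 and E18.5 mutant replicate 4 was left out. Without the third control replicate it was -0.38 and was not called (adjusted p = 0.0577).

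Edn1, the endothelin-1 precursor, was the most scattered of the genes in E18.5 mutants. It measured 7.02, 7.47, 5.46, 5.08 and 5.35 there, against 5.93, 5.63, 5.08, 5.83 and 6.10 in E18.5 controls. The first 2 mutants lay above every control and the other 3 below 4 of the 5 controls. The difference was 0.36 (SE 0.37, limma adjusted p = 0.474), with a 95% interval of -0.42 to 1.14, which spans a fall and more than a doubling. The value depended on single arrays: it was 0.20 without the third control, 0.13 and 0.014 without the first and second mutant, 0.61 and 0.55 without mutant replicates 4 and 5, and none of these was called.

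Ptgs2, the inducible cyclooxygenase, and Npr1, the cyclic GMP-forming natriuretic peptide receptor, were dim on all 20 arrays, as was the second Hpgd probe set (1419906_at). The 2 Ptgs2 probe sets lay at 2.51 to 3.22 and 2.31 to 2.37 in E18.5 mutants, and at 2.48 to 2.93 and 2.32 to 2.38 in E18.5 controls. Npr1 lay at 2.61 to 2.98 in E18.5 mutants and 2.66 to 2.74 in E18.5 controls. A dim probe set gives no more than an upper limit, so no difference is given for these genes.

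**Figure D2:**
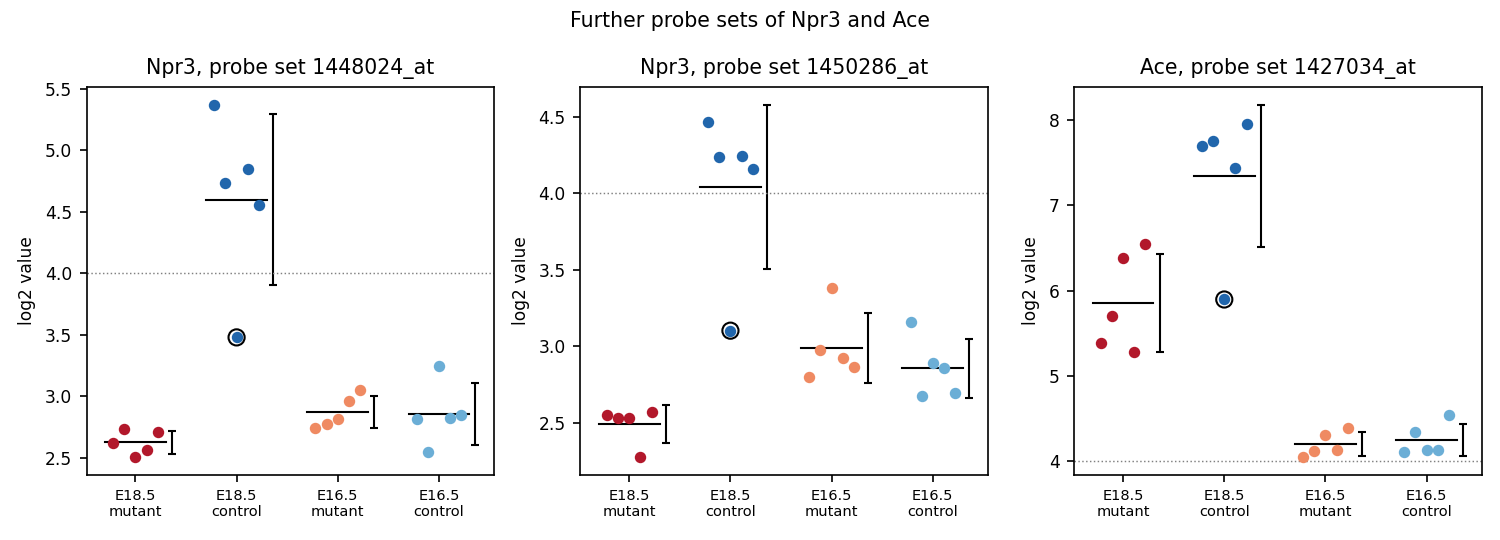
Log2 intensity (vertical axis, log2) on each of 20 arrays for the 2 dimmer Npr3 probe sets and the dimmer Ace probe set (1 panel each), in E18.5 mutants, E18.5 controls, E16.5 mutants and E16.5 controls. Points are arrays, lines group means and bars SD; the ring marks the third replicate of the E18.5 controls and the dotted line log2 4. The 2 Npr3 probe sets exceed 4 in 4 E18.5 controls alone, and on the Ace probe set 2 of 5 E18.5 mutants lie above the third E18.5 control.

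At E16.5 none of the 6 genes was called (0 of 6, against 0.248% of all tested genes), and 1, Hpgd, had an unadjusted p under 0.05 in limma, against 356 of 8068 genes. Ptgis measured 7.17, 7.24, 6.88, 6.81 and 6.62 in E16.5 mutants, against 7.14, 6.95, 6.82, 6.89 and 6.52 in E16.5 controls. Npr3 measured 7.52, 7.76, 7.97, 7.81 and 7.76 in E16.5 mutants, against 7.49, 7.49, 7.70, 7.64 and 7.86 in E16.5 controls. Ace measured 6.21, 6.37, 6.24, 6.27 and 6.34 in E16.5 mutants, against 6.22, 6.25, 6.31, 6.29 and 6.59 in E16.5 controls. The groups overlapped in each of the 3 genes that differed most 2 days later, and the 95% intervals of their differences were -0.20 to 0.37 for Ptgis, -0.19 to 0.44 for Npr3 and -0.50 to 0.40 for Ace.

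Hpgd at E16.5 measured 7.24, 7.35, 7.37, 8.23 and 7.76 in mutants, against 7.78, 8.19, 8.05, 8.25 and 8.22 in controls. 4 of 5 mutants lay below all controls. The difference was -0.51 (SE 0.18, limma adjusted p = 0.682), with an unadjusted p of 0.0096 and a 95% interval of -0.88 to -0.14, and so was not called. Nos3 lay at 6.59 to 6.72 in E16.5 mutants, against 6.17 to 7.07 in E16.5 controls, a difference of 0.00 with an interval of -0.30 to 0.30. Edn1 lay at 4.16 to 4.87 in E16.5 mutants, against 4.01 to 4.93 in E16.5 controls, a difference of 0.05 with an interval of -0.73 to 0.83. Since 5 of 5 E16.5 mutants and 1 of 5 E16.5 controls were female, sex and genotype are nearly tied at this stage; with sex in the fit, the Hpgd difference was -0.55 and still not called (limma adjusted p = 0.627). In that fit the difference was 0.28 for Ptgis, against 0.08 without sex, 0.10 for Npr3 and -0.08 for Ace, none of them called. The intervals given for E16.5 are from the fit without sex.

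Between E16.5 and E18.5 all 6 genes rose in control lungs (6 of 6, against 35.3% of all tested genes called higher and 70.9% called in either direction). In each, every E18.5 control lay above every E16.5 control, as in 25.9% of tested genes. Ace had the largest rise of the 6, 2.56 (SE 0.21, limma adjusted p = 6.96e-09), a 5.89-fold increase. Npr3 rose by 1.85 (SE 0.15, limma adjusted p = 4.58e-09) and Hpgd by 1.43 (SE 0.18, limma adjusted p = 8.07e-07). Edn1 rose by 1.26 (SE 0.37, limma adjusted p = 0.00539), Ptgis by 1.14 (SE 0.14, limma adjusted p = 5.41e-07) and Nos3, the least, by 0.60 (SE 0.15, limma adjusted p = 0.00109). The E16.5 values of Edn1 were close to the dim limit, so the size of its rise is not exact. Without the third control replicate all 6 were still called, at 2.82 for Ace, 2.01 for Npr3, 1.56 for Hpgd, 1.42 for Edn1, 1.12 for Ptgis and 0.63 for Nos3. With its dim probe set averaged in, Hpgd rose by 0.79. Of the controls, 1 of 5 at E16.5 and 3 of 5 at E18.5 were female, so sex and stage are partly tied in controls. All 6 rises were called under all 32 alternatives run, among them sex in the fit.

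In mutant lungs the same 2 days gave a mixed picture. 5 of 5 E16.5 mutants and 2 of 5 E18.5 mutants were female, so sex and stage are partly tied in mutants. Hpgd, Ace and Edn1 rose (3 of 6, against 28.7% of all tested genes), Ptgis fell (1 of 6, against 27.6%), and Npr3 and Nos3 were not called; 56.2% of tested genes were called in either direction. Ptgis was lower in all 5 E18.5 mutants, at 6.18 ± 0.25, than in all 5 E16.5 mutants, at 6.95 ± 0.26 (mean ± SD, n = 5 each), and fell by 0.76 (SE 0.14, limma adjusted p = 0.000118), a direction opposite to that in controls; 20.3% of tested genes were lower in every E18.5 mutant than in every E16.5 mutant. Npr3 averaged 7.61 ± 0.22 in E18.5 mutants and 7.76 ± 0.16 in E16.5 mutants, a difference of -0.15 (SE 0.15, limma adjusted p = 0.413) with a 95% interval of -0.46 to 0.17. The interval lies under the rise of 1.85 in controls. The fall of Ptgis was called under all 32 alternatives run, among them sex in the fit.

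Ace rose by 1.15 (SE 0.21, limma adjusted p = 0.00018) in mutants, 45.0% of its change in controls on the log2 scale. Hpgd rose by 1.24 (SE 0.18, limma adjusted p = 1.21e-05), 86.5% of the control change (0.64 with its dim probe set averaged in), and Edn1 by 1.57 (SE 0.37, limma adjusted p = 0.0015), 125% of it. At E16.5 Edn1 lay at 4.16 to 4.87 in mutants and 4.01 to 4.93 in controls. These values are close to the dim limit of 4, so the sizes for Edn1 are not exact. Nos3 differed by 0.25 (SE 0.15, limma adjusted p = 0.147), 41.8% of the control change; without E18.5 mutant replicate 2 it was 0.36 and was called (limma adjusted p = 0.0369). These percentages share the control groups with the differences at E18.5 and carry the error of both. Over all tested genes, E18.5 mutants lay at 0.452 to 0.769 of the way from E16.5 controls to E18.5 controls. Whether the share of any 1 gene differs from this was not tested.

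**Figure D3:**
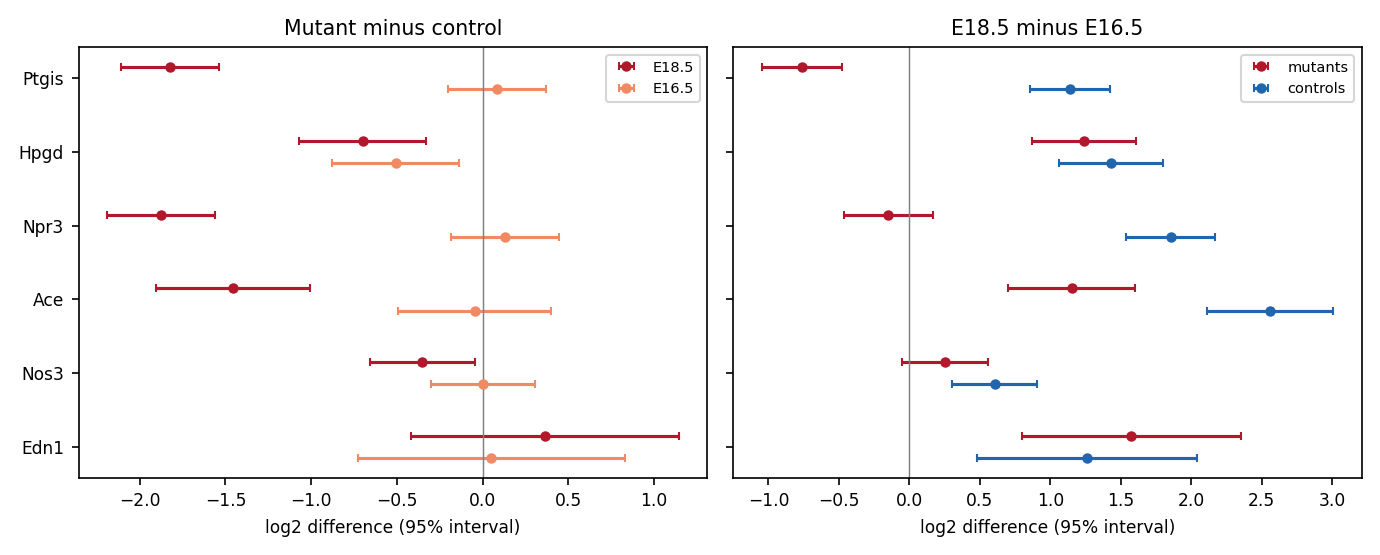
Log2 differences (horizontal axis, log2) of the 6 tested genes with 95% intervals, for mutants against controls at E18.5 and at E16.5, and for E18.5 against E16.5 in mutants and in controls. Points are limma estimates over 20 arrays, and bars their intervals. At E18.5 Ptgis, Npr3 and Ace lie beyond -1, at E16.5 the intervals of 5 of the 6 genes include 0 (Hpgd is the other), and in controls all 6 lie above 0.

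The mutant effect at E18.5 minus that at E16.5 was tested directly as an interaction. Ptgis, Npr3 and Ace passed (3 of 6, all lower, against 4.78% of all tested genes called lower and 8.40% called in either direction). The interaction was -1.90 (SE 0.19, limma adjusted p = 1.11e-05) for Ptgis, -2.00 (SE 0.21, limma adjusted p = 1.35e-05) for Npr3 and -1.41 (SE 0.30, limma adjusted p = 0.00919) for Ace. For the dimmer Ace probe set it was -1.45, which missed the threshold over all probe sets (limma adjusted p = 0.0519; 6.45% of probe sets were called). Hpgd gave -0.19 (SE 0.25, limma adjusted p = 0.681): its mutant effects at the 2 stages were -0.70 and -0.51, and a difference between them was not shown. Nos3 gave -0.35 (SE 0.21, limma adjusted p = 0.301) and Edn1 0.31 (SE 0.53, limma adjusted p = 0.759). Without the third E18.5 control the interactions were -1.89 for Ptgis, -2.16 for Npr3, -1.67 for Ace, -0.32 for Hpgd, -0.38 for Nos3 and 0.16 for Edn1, and the same 3 were called. The groups differed in their number of females. These 3 were called under all 31 alternatives run, among them sex in the fit.

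The genes whose pattern over the 20 arrays was closest to each of the 3 were ranked by the root mean square difference between their log2 values, each centred on its own mean. For Npr3 these were Chst1, a sulfotransferase, at 0.244, Plaur, the urokinase receptor, at 0.248, and Cdkn1a, the cell cycle inhibitor p21, at 0.272, against a median of 0.863 over all tested genes. For Ptgis they were Fkbp11, a prolyl isomerase, at 0.359, Tgm2, a transglutaminase, at 0.391, and Lpar1, a lysophosphatidic acid receptor, at 0.405, against a median of 0.749. For Ace they were Arhgef3 at 0.187, Tspan2, a tetraspanin, at 0.220, and Mok, a kinase, at 0.227, against a median of 1.13. The nearest neighbours of Ptgis were thus farther from it than those of Npr3 and Ace were from theirs.

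Other genes of these pathways were taken from 8 lists with 75 entries beyond the genes above, of which 63 were on the array under a single symbol and 35 were tested. At E18.5, 16 of the 35 fell and 5 rose in mutants, against 15.9% lower and 18.6% higher among all tested genes, and their median difference was -0.37. 1 of the 16, Adm, was above 4 in E18.5 controls alone, so that its fall followed from the filter; without it 15 of 34 fell, with a median of -0.31. With the third E18.5 control left out, Adm was not tested, and 16 of 34 fell and 7 rose. At E16.5 limma called 0 of the 35, against 0.248% of all tested genes, and 3 had an unadjusted p under 0.05, against 356 of 8068. In the interaction, 6 were lower and 2 higher, against 4.78% lower and 3.62% higher among all tested genes, or 5 lower and 2 higher without Adm. 5 of these calls, those of Ptgds, Slco2a1, Arg2, Prkg2 and Ramp1, were lost with no filter on dim genes (adjusted p = 0.0518 to 0.079), and those of Ptgds (0.132), Slco2a1 (0.164) and Prkg2 (0.241) also with sex in the fit. In control lungs 25 rose and 5 fell over the 2 days, against 35.3% and 35.5% of all tested genes. The rise of Adm there also followed from the filter, and without it 24 of 34 rose and 5 fell. In mutant lungs 22 rose and 2 fell, against 28.7% and 27.6%.

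Among prostanoid genes at E18.5, the transporter Slco2a1, which takes up prostaglandins for breakdown, lay at 8.30 to 9.13 in mutants and 9.35 to 10.07 in controls and fell by 1.20 (SE 0.21, limma adjusted p = 0.000292). Ptger4, a receptor for prostaglandin E2, fell by 0.90 (SE 0.32, limma adjusted p = 0.0353), or 0.46 as the mean of its probe sets, while Ptger2 and Ptger3 were not called. 3 enzymes rose: Ptgds, a prostaglandin D synthase, by 0.84 (SE 0.16, limma adjusted p = 0.000719), and the reductases Ptgr1 by 0.42 and Cbr1 by 0.26. The calls of Ptger4, Ptgr1 and Cbr1 were each lost when some single arrays were left out. For Ptger4 these were E18.5 control replicates 1, 2, 3 and 5 and E18.5 mutant replicates 1, 2 and 4 (-0.91 to -0.76 without them). For Ptgr1 they were E18.5 control replicates 1, 2, 4 and 5 and mutant replicates 1, 2 and 4 (0.36 to 0.39), and for Cbr1 control replicates 2, 4 and 5 and mutant replicates 1 and 2 (0.22 to 0.26).

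Among genes of natriuretic peptide, nitric oxide and cyclic GMP signalling, Mme, the neprilysin peptidase that degrades natriuretic peptides, fell by 1.04 (SE 0.29, limma adjusted p = 0.00901) at E18.5, and Npr2, the receptor for C-type natriuretic peptide, was not called. Gch1, which starts the synthesis of the nitric oxide synthase cofactor, fell by 0.81, Arg2, an arginase that competes for arginine, by 0.82, and Cav1, the caveolar protein that restrains Nos3, by 0.41. As the mean of their probe sets, Gch1 fell by 0.65 and Arg2 by 0.60. Arg2 lay close to the dim limit of 4, at 4.01 to 4.94 in E18.5 mutants, so its size is not exact. Ddah2, which degrades inhibitors of nitric oxide synthase, rose by 0.67 (SE 0.14, limma adjusted p = 0.00146). Of the cyclic GMP effectors, the kinase Prkg2 lay at 5.82 to 6.66 in mutants and 6.78 to 8.50 in controls and fell by 1.81 (SE 0.41, limma adjusted p = 0.00251), or 1.16 as the mean of its probe sets. Prkg1, its vascular relative, fell by 0.69, and by 0.50 without E18.5 control replicate 4, where the call was lost (limma adjusted p = 0.062). Prkg1 lay close to the dim limit of 4, at 4.59 to 4.73 in E18.5 mutants and 4.38 to 6.12 in E18.5 controls. The size of its fall is therefore not exact, and the lowest control lay below every mutant. Gucy1b1, a subunit of the nitric oxide receptor, fell by 0.37.

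Among genes that act with Ace, Agt, the angiotensin precursor, fell by 1.15 (SE 0.35, limma adjusted p = 0.017) at E18.5, and Agtr2, an angiotensin II receptor, by 1.54 (SE 0.39, limma adjusted p = 0.00527). Prcp, a carboxypeptidase that cleaves angiotensin II and kinins, rose: it lay at 8.83 to 9.13 in mutants and 7.70 to 8.15 in controls, and rose by 0.96 (SE 0.09, limma adjusted p = 4.92e-07). Every mutant lay above every control. Among all tested genes 18.6% were called higher at E18.5, and the share with such a separation is not given here. Enpep, the aminopeptidase that cleaves angiotensin II, was not called. Of the endothelin genes, the converting enzyme Ece1 fell by 0.40 and the precursor Edn3 by 0.38, while the receptor Ednrb was not called.

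Adrenomedullin is a vasodilator peptide whose receptor, Calcrl, needs a partner of the Ramp family. Adm lay at 2.47 to 3.10 in E18.5 mutants, against 4.50 to 6.12 in E18.5 controls. The E16.5 values were dim, at 2.47 to 2.51 in mutants, against 2.42 to 2.51 in controls. Adm was thus above 4 in E18.5 controls alone and entered the fit through that group, so a difference followed from the filter; the fitted fall of 2.43 (SE 0.20, limma adjusted p = 8.50e-08) is therefore not an exact size, since mutants were dim. Ramp2 lay at 10.92 to 11.29 in mutants and 11.56 to 11.81 in controls and fell by 0.61 (SE 0.07, limma adjusted p = 6.94e-06). Ramp1 fell by 1.00 (SE 0.20, limma adjusted p = 0.00112). Calcrl itself differed by -0.77 (SE 0.30, limma adjusted p = 0.0515) and was not called.

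**Figure D4:**
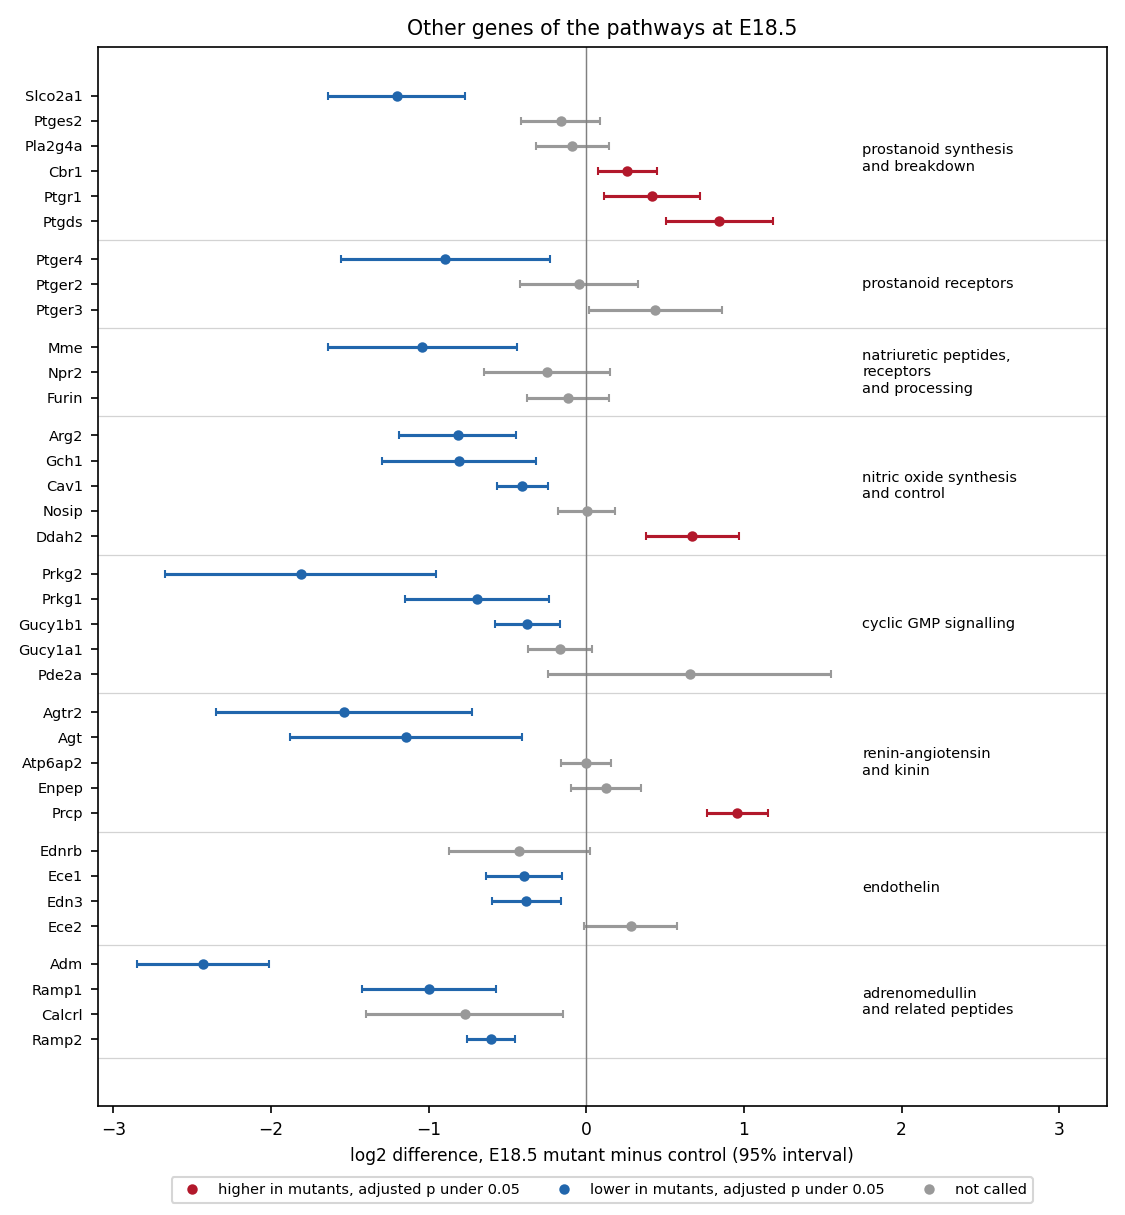
Log2 difference of mutants against controls at E18.5 (horizontal axis, log2, with 95% intervals) for the 35 tested genes of the pathway lists beyond those described first, grouped by list, with colour for genes called lower, called higher or not called by limma. 16 are called lower and 5 higher; the point of Adm, 1 of the 16, is not an exact size, because Adm was above 4 in E18.5 controls alone.

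Levels of cell type markers are given beside these results. For comparison with the counts of these lists, 15.9% of all tested genes were called lower and 18.6% higher in E18.5 mutants. Of 12 endothelial markers, 8 were lower in E18.5 mutants and none higher, with a median difference of -0.43; their summed level (log2 of the sum) was 13.6 to 13.8 in E18.5 mutants, against 14.0 to 14.2 in E18.5 controls. The E16.5 sums were lower, at 13.0 to 13.2 in mutants, against 13.1 to 13.3 in controls. Ramp2, described above, is 1 of the 12 endothelial markers and 1 of the 8 that were lower. Arterial endothelial markers had 1 of 5 lower, with sums of 11.4 to 11.6 in E18.5 mutants and 11.2 to 11.9 in E18.5 controls, and Gja5 was dim on all arrays. Smooth muscle markers had 1 of 7 lower, with sums of 13.4 to 13.8 in E18.5 mutants and 13.1 to 13.9 in E18.5 controls, and Lmod1 was dim on all arrays. Pericyte markers had 2 of 7 higher and 1 lower, with sums of 12.3 to 12.7 in E18.5 mutants and 12.3 to 12.6 in E18.5 controls. The endothelial sums did not overlap between E18.5 mutants and E18.5 controls, and those of the arterial, smooth muscle and pericyte lists did. This was not particular to endothelial markers. Fibroblast, mesothelial, epithelial and erythroid sums, given next, did not overlap either, the epithelial ones by a narrow margin. Macrophage and cardiac muscle sums overlapped.

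Fibroblast markers had 3 of 8 lower, with sums of 15.4 to 15.6 in E18.5 mutants and 15.8 or above in E18.5 controls. Mesothelial markers had 3 of 3 lower, with a median difference of -1.19 and sums of 11.1 to 11.9 in E18.5 mutants and 12.8 to 13.1 in E18.5 controls; Wt1 was dim on all arrays. Epithelial markers had 1 of 7 lower and 1 higher, with sums of 15.84 to 15.96 in E18.5 mutants and 15.96 or above in E18.5 controls. For macrophage and cardiac muscle markers limma called none of 7 and none of 6 at E18.5, with Nppa dim on all arrays, and of erythroid markers 1 of 2 was lower, with sums of 10.6 to 11.0 in E18.5 mutants and 11.1 to 11.7 in E18.5 controls and with Hba-a1 and Epb42 dim on all arrays. At E16.5 limma called no marker of any of these lists, against 0.248% of all tested genes. The part that endothelial, mesothelial or other cells have in the differences of Ptgis, Npr3, Ace and Hpgd was not tested.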

How the data were processed

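The arrays were Affymetrix mouse gene arrays, 20 in all, with 1 animal each. The authors deposited 1 table of log2 intensities for 22690 probe sets, normalised with GCRMA per the submitters' processing notes; the version was not given in the sources used here, and all 20 value columns were used. No scanner files were used, so background correction and normalisation could not be repeated from raw intensities. GCRMA subtracts background modelled from probe sequence, which compresses dim probe sets to a narrow band at the bottom of the scale. Array medians lay between 5.70 and 5.87, and array data carry no read depth: the number of arrays limits the precision.

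Probe sets were named through GEO's platform annotation: 20380 name 1 gene, 691 several and 1555 none, and 64 are array controls. Each of 12393 genes was represented by its brightest single-gene probe set, and 8068 passed the filter (log2 over 4 on at least 5 arrays). limma 3.58.1 in R 4.3.3 (lmFit, eBayes) fitted the 4 group means over all 20 arrays, so the groups share 1 estimate of the spread, and Benjamini-Hochberg adjustment ran over all tested genes. The script was tested on simulated data. A sum over markers is the log2 of their summed linear intensities. The genes described, the pathway and marker lists and the alternatives were chosen with earlier results of these data known. Pathway genes were named by rule: for each mutant comparison up to 4 called rises and 4 called falls with the largest change, and up to 2 further called genes in each list; those named outside it (Cav1, and genes given as not called) were chosen after their values were seen. The genes most like a given one were taken for the 3 with the largest difference at E18.5. Alternatives changed the filter, the probe set rule, the normalisation, array weights, the threshold, sex as a covariate, the groups fitted and each array in turn. Replicate numbers were not used to pair the samples in the main fit, and the labels give no batch. Deviations from group means correlated at -0.43 to 0.60 between same-numbered arrays. Between mutants and controls this was -0.096 to 0.597 at E16.5 and -0.429 to 0.208 at E18.5. Arrays with different numbers were not compared, so pairing or a shared batch was not tested.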

Additional observations from a re-analysis of the deposited data

Results flagged for a closer look

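In a group of 5 arrays, the lowest or highest array stood far from the other 4 by Dixon's criterion in 10 of 52 groups tested, where chance gives about 1 in 20. E18.5 control replicate 3 was the low array for Ace on both probe sets (7.85 and 5.90), for the second dim Npr3 probe set (3.10) and for a dim Ptgs2 probe set (2.32). E18.5 mutant replicate 4 was the low array for Ptgis (5.74), for the brightest Npr3 probe set (7.24) and for the second dim Npr3 probe set (2.28). E18.5 mutant replicate 3 stood apart on the dim Hpgd probe set (2.27) and on Npr1 (2.98), both under the level called dim. E16.5 control replicate 5 was the high array for Ace (6.59).

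The mutant effect differed between E18.5 and E16.5, by the interaction in limma, in 3 of the 6 genes: Ptgis (-1.90), Npr3 (-2.00) and Ace (-1.41). The interaction was also called in 8 other genes of the pathway lists, 1 of them Adm, whose difference followed from the filter. Ramp2 (-0.57) and Prcp (0.75) passed the threshold whichever single array was left out. Adm (-2.44) was above 4 in the 5 E18.5 controls alone, so leaving out other arrays is no check of its call. With an E18.5 control left out, Adm fell below the filter and was not tested. The other 5 lost the call in many of the 20 fits without 1 array: Prkg2 (-1.94) in 14, with values of -2.01 to -1.58 there (-1.22 over 20 arrays as the mean of its probe sets), Slco2a1 (-1.02) in 14 with -1.05 to -0.90, Ptgds (0.80) in 14 with 0.71 to 0.83, Ramp1 (-1.03) in 12 with -1.04 to -0.92 and Arg2 (-0.92) in 8 with -0.92 to -0.79.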

How the results depend on the processing

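The number of genes called among the 6 stayed within 1.5 times its value in every comparison under every alternative run, and no call of these 6 genes was lost in 954 recomputed values. At E18.5, 4 or 5 of the 6 were called; the fifth was Nos3. The pathway count at E18.5 was 21, and 14 to 27 over the alternatives, or 17 to 23 without 1 array. Over all tested genes, the calls at E16.5 were 20, against 43 with array weights, 11 at an adjusted p under 0.01, 9 with the E16.5 groups alone and 8 with sex in the fit; at E18.5 they were 2784, against 1645 at 0.01; in the interaction they were 678, against 2244 with array weights, 403 with sex and 166 at 0.01. Testing every probe set, 13510 in place of 8068 genes, gave 4199 calls at E18.5, 7288 in place of 4538 over development in mutants and 9231 in place of 5718 in controls. Differences near 0 changed sign without being called. Nos3 at E16.5 (0.00) became -0.0181 with quantile normalisation, -0.0149 with median centring and -0.018 with sex in the fit, and lay at -0.12 to 0.10 without 1 array. Edn1 at E16.5 (0.05) became -0.29 with sex in the fit and lay at -0.061 to 0.17 without 1 array. Without 1 array, Ptgis at E16.5 lay at -0.00325 to 0.16, Ace at E16.5 at -0.075 to 0.017, and the Edn1 interaction at -0.035 to 0.56. The causes of these changes were not tested. With the replicate number as a block, 4 of the 6 genes and 22 pathway genes were called at E18.5, and Ptgr1 was lost (limma adjusted p = 0.0523). Ptgr1 was also lost with the E18.5 groups alone in the fit (adjusted p = 0.103) and with no filter (0.052). Ptger4 was lost with no filter (adjusted p = 0.0618) and with sex in the fit (0.0516), Prkg1 with the E18.5 groups alone (0.0591) and Ece1 with the mean of its probe sets (0.0859). Dim probe sets limit what can be said of Ptgs2 and Npr1.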
